A study of Mus musculus with 2 samples.

Results

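The genes described here encode chromatin remodelling enzymes, their accessory subunits and bromodomain proteins. They were taken by name from the deposited count table, as the CHD, SMARC, ARID, BRD, BRWD, BAZ and INO80 gene families together with Bptf, Ep400, Srcap, Ruvbl1 and Ruvbl2, leaving out names that mark a pseudogene. This gave 55 of the 56791 genes in the table, and the naming rule uses no measured value. The samples were wild-type RAW264.7 cells, an established mouse macrophage-like line that grew from a leukaemia. As the labels are read here, IL-4 was given to both cultures (20 ng, mouse recombinant, 24 h), a treatment they name M2 polarization. The culture labelled as treated had 10000000 particles of FAPD10-exos over the same time, a name the labels do not explain, and the other is labelled vehicle. With 1 library in each group, called treated and vehicle below, no difference has a replicate check and no p-value was computed.

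Remodelling enzymes use the energy of ATP to slide, evict or exchange nucleosomes, and so decide which promoters and enhancers are open to transcription factors. They fall into the SWI/SNF, CHD, ISWI and INO80 families, each built around a catalytic ATPase of the SNF2 type with accessory subunits that direct it. Bromodomains read acetylated lysines on histones, and in macrophages remodellers and bromodomain proteins take part in switching on inflammatory and cytokine-induced genes.

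The treated library held 37196241 counts and the vehicle library 36152743. Levels are in CPM, counts per 1000000 after scaling of the library size, every ratio has the treated library as numerator, and the ranges in parentheses are 95% intervals that cover counting error only. Macrophage identity was checked by 10 markers, of which 9 were measured, meaning a mean of at least 1 CPM, and the 10 summed to 2220.4 CPM (treated) and 2425.09 CPM (vehicle). Fibroblast and stromal markers summed to 0.281 and 0.159 CPM, with Col1a1, Col1a2, Dcn, Lum and Thy1 at 0 counts in both libraries, and the 4 epithelial markers were also at 0. The 4 endothelial and 4 lymphocyte markers summed to 0.731 and 0.169 CPM with treatment and 0.370 and 0.106 CPM without.

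Of the 55 members, 52 were measured, and most were lower in the treated library. The ratio was at least 1.5-fold lower, with an interval that left out 1, for 25 of the 52, or 48.1%, beside 19.8% of all 12264 measured genes. Only Smarce1 and Ruvbl1 were at least 1.5-fold higher, 3.85% of the measured members beside 17.1% of all measured genes, and neither passed that threshold when libraries were scaled by total counts or by median of ratios. At the 2-fold threshold 15 members were lower and 0 higher, where the shares of all measured genes were 8.64% and 4.19%. The median log2 ratio of the members was -0.56, which is 1.48-fold lower, beside 0.01 for all measured genes. Scaling by total counts moved the median of all measured genes by -0.13 and that of the members to -0.69.

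Transcript length moved with these differences. Over 51 measured members with a protein-coding transcript in GENCODE M21, Spearman's rho between the log2 ratio and the length of the principal transcript was -0.74, and over all 9918 such genes it was -0.60. These are correlations across genes of the same 2 libraries, and genes are not independent replicates. Members are long, with a median of 5921 nt beside 2982 nt for all such genes. Of the 24 members of 6000 nt or more, 17 were at least 1.5-fold lower and all but Smarca5 and Brwd1 had a ratio below 1. Of all 1177 measured genes in that length class, 58.7% were at least 1.5-fold lower. From 3000 nt to under 6000 nt, 8 of 17 members were at least 1.5-fold lower, or 47.1%, beside 25.8% of all 3753 genes. Among the 10 members under 3000 nt, 8 had a ratio above 1, 0 were at least 1.5-fold lower and 2 higher, where all 4988 genes of that class had 5.67% lower, 25.8% higher and a median log2 ratio of 0.29.

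A correction that subtracts, at each transcript length, the running median of all measured protein-coding genes left a member median of -0.14. After this correction 12 of 51 members were at least 1.5-fold lower, beside 12.0% of all measured protein-coding genes, and 3 were higher, beside 10.2%. Of these 12, 11 were also lower before it. With the exon length of the count table in place of transcript length, 13 of 52 were lower and 3 higher, beside 16.4% and 12.2% of all measured genes. In all, 10 members were lower under both corrections, namely Chd2, Chd9, Ino80d, Ep400, Srcap, Baz2a, Arid3a, Arid4a, Arid4b and Arid5b, and Smarce1 and Brwd1 were higher under both. The share of all measured genes past 1.5-fold under both corrections was not computed, so these counts are not a result about the members. In bulk samples, fewer cells of a type and less RNA per cell cannot be told apart, and what underlies the relation to length was not tested.

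**Figure D1:**
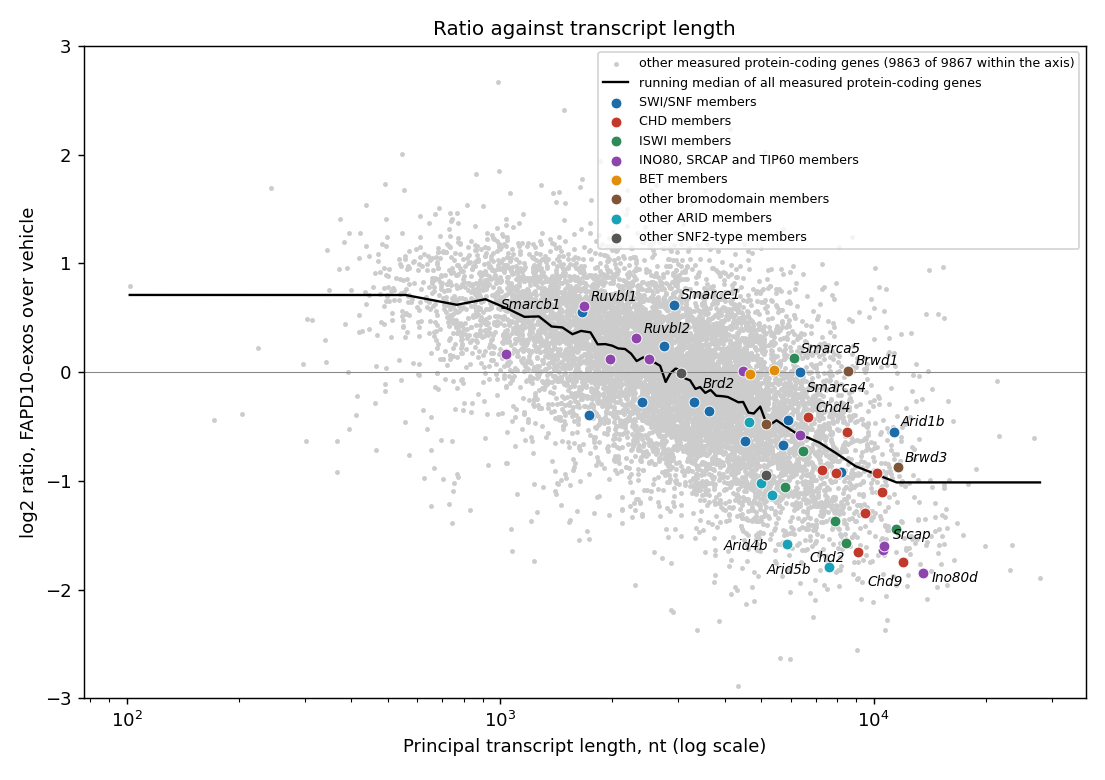
Each point is a measured protein-coding gene, with the length of its principal transcript on a log axis and the log2 ratio of treated over vehicle. Coloured points are members by family, grey points are other genes and the line is the running median of all of them. Most long members lie below 0, with Ino80d at -1.85, while Brwd1 and Smarca5 lie near 0 and well above the line.

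Promoters are shown for Ep400 and Srcap, which were lower in the treated library, and for Ruvbl2 and Ruvbl1, which were higher. They were picked after values were seen and are not the ends of the range. Members such as Ino80d, 3.60-fold lower, and Smarce1, 1.54-fold higher, lie farther out. Ruvbl1 and Ruvbl2 encode the AAA+ ATPases shared by the INO80, SRCAP and TIP60 complexes. Srcap and Ep400 encode the SNF2-type ATPases of the SRCAP and TIP60 complexes. Each run is the 250 bases before the start site on GRCm38.p6, from RefSeq, 5′ to 3′ on the strand of the gene. Capitals mark matches on either strand. The motifs searched for marking included the GC box, spelled GGGCGG, the CCAAT box, spelled as its name, and the TATA box, for which the letters TATAAA were used. The E-box CACGTG, the ETS core CCGGAAG and the CRE TGACGTCA were also searched for, and the runs shown held none of them. The runs were at chr5:110770718-110770967 on the minus strand for Ep400, chr7:127511733-127511982 on the plus strand for Srcap, chr7:45434465-45434714 on the minus strand for Ruvbl2 and chr6:88465159-88465408 on the plus strand for Ruvbl1.
Ep400: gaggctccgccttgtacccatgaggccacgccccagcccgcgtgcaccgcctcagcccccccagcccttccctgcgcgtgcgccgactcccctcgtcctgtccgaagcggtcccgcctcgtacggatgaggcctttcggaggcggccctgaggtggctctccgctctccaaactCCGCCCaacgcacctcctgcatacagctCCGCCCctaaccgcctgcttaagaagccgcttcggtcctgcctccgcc
Srcap: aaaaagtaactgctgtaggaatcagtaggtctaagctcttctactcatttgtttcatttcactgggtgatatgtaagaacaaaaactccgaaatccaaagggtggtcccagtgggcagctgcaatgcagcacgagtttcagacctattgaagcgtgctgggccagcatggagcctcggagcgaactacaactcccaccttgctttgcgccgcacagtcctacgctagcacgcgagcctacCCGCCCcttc
Ruvbl2: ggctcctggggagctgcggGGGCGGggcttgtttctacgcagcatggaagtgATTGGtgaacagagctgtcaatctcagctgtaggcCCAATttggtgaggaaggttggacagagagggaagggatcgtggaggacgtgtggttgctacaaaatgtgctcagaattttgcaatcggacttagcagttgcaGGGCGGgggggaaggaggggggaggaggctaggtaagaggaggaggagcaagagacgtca
Ruvbl1: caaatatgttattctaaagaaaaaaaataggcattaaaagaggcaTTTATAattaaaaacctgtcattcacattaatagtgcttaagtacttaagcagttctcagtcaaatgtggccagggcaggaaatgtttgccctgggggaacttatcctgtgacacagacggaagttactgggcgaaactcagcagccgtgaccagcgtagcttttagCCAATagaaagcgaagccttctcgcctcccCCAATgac

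The Ep400 run, of a gene 3.11-fold lower, held 25 CpG dinucleotides, 2 GC boxes and no CCAAT box. The Ruvbl1 run, of a gene at a ratio of 1.52, held 6 CpG dinucleotides, 2 CCAAT boxes and 1 TATAAA match. That match was on the opposite strand and nearer the upstream end of the run than the start site. RefSeq promoters were found for 43 of the 55 members, 54 in all. A GC box was in 75.9% of these and in 32.7% of all 32851 promoters, a CCAAT box in 25.9% beside 33.8% and a TATA box in 7.41% beside 12.4%. Of the 20 promoters of members at least 1.5-fold lower, 65.0% held a GC box. The median GC content was 65.4% for members and 52.4% for all promoters. These matches describe the sequence only.

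INO80-type complexes showed the widest split. The 3 members with the longest transcripts were each more than 3-fold lower, while the small and shared subunits were level or higher. Ino80d, a regulatory subunit of the INO80 complex, had 369 counts (treated) and 1410 counts (vehicle), which was 3.60-fold lower (3.21 to 4.05) and stood at -0.83 in log2 after correction for transcript length. Its antisense neighbour Ino80dos, a member by name but not a protein-coding gene, had 169 and 139 counts, a ratio of 1.29 (1.03 to 1.63), with an interval that included 1 when counts were halved (0.929 to 1.80). Its value is uncertain, since Ndufs1 and Ino80d cover 33.8% of its exons. Ep400 had 1024 and 3378 counts, 3.11-fold lower (2.90 to 3.33) and -0.67 after correction. Srcap, which deposits the histone variant H2A.Z, had 3330 and 10747 counts and was 3.04-fold lower (2.92 to 3.16), but its value is uncertain, since other genes cover 65.0% of its exons. These 3 genes were the ones in the family that were at least 1.5-fold lower.

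The catalytic subunit Ino80 itself lay just under the threshold, at 1763 and 2788 counts, 1.49-fold lower (1.402 to 1.58), and at 0.00 after correction for transcript length and -0.29 with exon length. Scaling by total counts and by median of ratios put Ino80 past 1.5-fold, at -0.70 and -0.62 in log2. Ruvbl1, with 14931 and 10415 counts, was higher at 1.52 (1.48 to 1.56), or 0.23 in log2 after correction. Its partner Ruvbl2 had 10407 and 8918 counts, a ratio of 1.24 (1.205 to 1.275). The small subunits Ino80b, Ino80c and Ino80e had ratios of 1.12, 1.09 and 1.09, and Brd8, the bromodomain subunit of TIP60, one of 1.00 (0.967 to 1.04). After correction for transcript length Ino80b, Ino80c, Ino80e and Brd8 stood at -0.42, 0.02, -0.12 and 0.28 in log2. With exon length they stood at -0.21, -0.11, 0.40 and 0.50. Per kilobase of exon, Ruvbl1 stood at 221 CPM in the treated library, against 2.06 CPM for Ep400 and 0.584 CPM for Ino80d. The list of 22 other subunits, all measured, had a median log2 ratio of 0.14, and 4 passed 1.5-fold upwards and 5 downwards, which is 18.2% and 22.7%, near the shares of all measured genes. After correction for transcript length the median was -0.12, with 2 higher and 1 lower, with exon length 0 were higher and 2 lower, and under scaling by total counts 1 was higher. The extremes were the deubiquitinase gene Uchl5, at 1.68 (1.63 to 1.73), and Dmap1, at 1.59, against Mbtd1 and the scaffold Trrap, which were 2.09-fold and 2.02-fold lower.

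**Figure D2:**
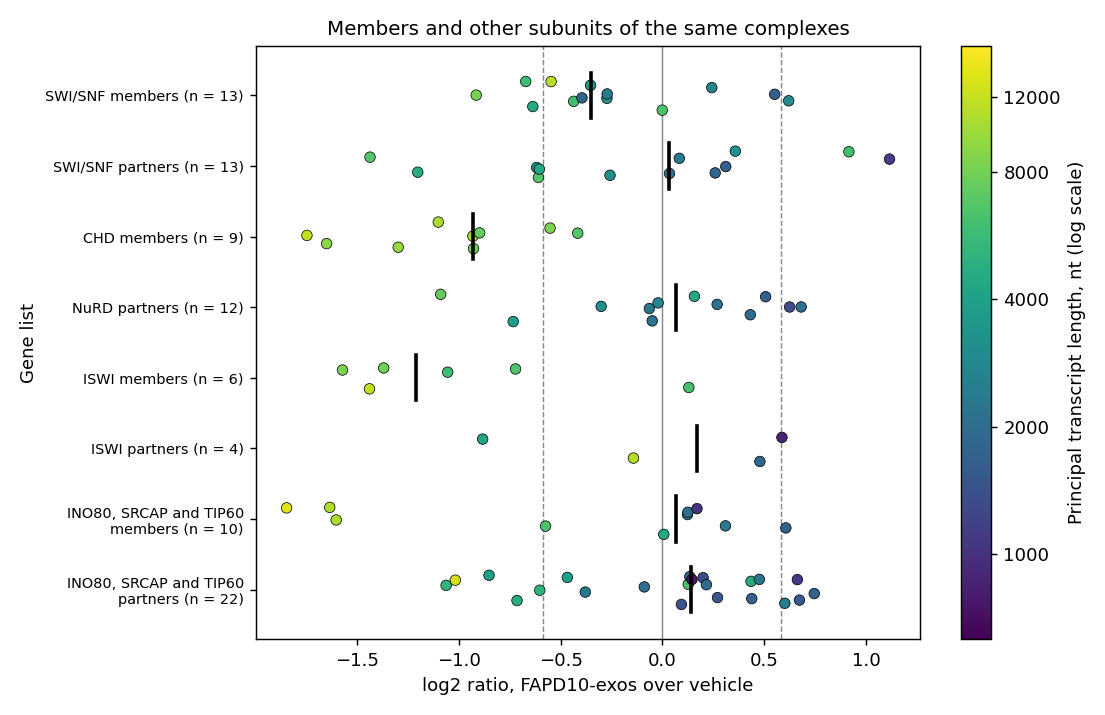
Points are measured genes, placed by their log2 ratio of treated over vehicle and coloured by principal transcript length on a log scale. Rows are the members of each complex family and the other subunits of the same complexes, vertical black bars are medians and dashed lines mark 1.5-fold. The CHD and ISWI members have medians of -0.93 and -1.21, whereas the other NuRD and ISWI subunits, mostly with shorter transcripts, have medians of 0.07 and 0.17.

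All 9 CHD genes had ratios below 1, and 7 were at least 1.5-fold lower, 4 of them at least 2-fold. The 7 are 77.8%, beside 19.8% of all measured genes. The CHD transcripts run from 6697 to 12008 nt. Of all measured protein-coding genes of 6000 nt or more, 58.7% were at least 1.5-fold lower. After correction for transcript length 2 of the 9 were lower and the family median was -0.19, or -0.46 with exon length. Chd9, a large and little-studied paralog, had 520 and 1854 counts and was 3.36-fold lower (3.04 to 3.71). Chd2, a remodeller bound at active genes, had 2269 and 7566 counts and was 3.14-fold lower (2.995 to 3.29). After correction for transcript length Chd9 stood at -0.73 and Chd2 at -0.78. Of the exon length of Chd2, 15.1% is shared with other genes, mainly Chaserr, a noncoding RNA known to restrain Chd2, which had 221 and 271 counts and a ratio of 0.866 (0.722 to 1.04).

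Chd5 and Chd6 were 2.46-fold and 2.15-fold lower, Chd5 from only 111 and 290 counts. After correction for transcript length they stood at -0.40 and -0.14, and with exon length at -0.85 and -0.19. Chd7, whose human counterpart is mutated in CHARGE syndrome, was 1.91-fold lower (1.81 to 2.02) from 1924 and 3898 counts, yet stood at 0.01 after correction for transcript length and -0.27 with exon length. Chd1 was 1.90-fold lower and Chd3 1.86-fold lower, with corrected values of -0.19 and -0.24. Chd8 was 1.47-fold lower, under the threshold, and stood at 0.26 after correction for transcript length and 0.27 with exon length. Under scaling by total counts and by median of ratios Chd8 was past 1.5-fold, at -0.68 and -0.60 in log2.

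Chd4, the main ATPase of the nucleosome remodelling and deacetylase complex NuRD, was the highest member in the vehicle library, with 45578 and 64606 counts, or 1281 and 1709.5 CPM. It was 1.33-fold lower (1.32 to 1.35), the smallest difference among the CHD genes, and stood at 0.19 after correction for transcript length and -0.05 with exon length. Other NuRD subunits were not lower as a group. Of 12 measured, 2 were at least 1.5-fold higher, the deacetylase gene Hdac2 at 1.60 (1.57 to 1.64) and Cdk2ap1 at 1.54 (1.47 to 1.62), and 2 were lower, Gatad2b by 2.13-fold and Gatad2a by 1.66-fold. Either count is 16.7%, near the shares of all measured genes, 17.1% higher and 19.8% lower. After correction for transcript length 0 of the 12 were past 1.5-fold, and with exon length 2 were higher, Hdac2 at 0.69 and Rbbp4 at 0.61 in log2. Under scaling by total counts 0 were higher.

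Among ISWI genes the ATPase gene parted from the BAZ genes and Bptf. Smarca5, which encodes the ISWI ATPase SNF2H, had 14527 and 14103 counts, a ratio of 1.09 (1.07 to 1.12), while every measured BAZ gene and Bptf, the scaffold of the NURF complex, were at least 1.5-fold lower. The lower genes are 83.3% of the 6 measured ISWI members, beside 19.8% of all measured genes. Transcripts of the 6 run from 5788 to 11488 nt. Of all measured protein-coding genes of 6000 nt or more, 58.7% were at least 1.5-fold lower. Baz2a, a subunit of the complex that silences ribosomal DNA, had 1058 and 3342 counts and was 2.97-fold lower (2.77 to 3.19). Bptf, with 3301 and 9511 counts, was 2.71-fold lower (2.61 to 2.82), and Baz2b was 2.58-fold lower from 3691 and 10133 counts.

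Baz1a, which pairs with SNF2H in the ACF and CHRAC complexes, was 2.08-fold lower (2.03 to 2.13), and Baz1b 1.65-fold lower (1.62 to 1.68). After correction for transcript length Smarca5 stood at 0.68, and at 0.42 with exon length, while Baz2a stood at -0.77 (-1.07 with exon length) and Baz2b at -0.63 (-0.49). Baz1a, Bptf and Baz1b, at -0.56, -0.43 and -0.14, were not past 1.5-fold after correction for transcript length. With exon length Baz1a and Bptf were past it, at -0.74 and -0.76, while Baz1b, at -0.06, and Baz2b were not. Smarca1, the paralog of Smarca5, had 4 and 6 counts and was not measured. A processed copy named Smarca5-ps had 81 and 72 counts, and the sources used here do not give how reads were divided between it and Smarca5. Of 4 measured ISWI partners, the histone-fold gene Chrac1 was 1.502-fold higher (1.42 to 1.59), Pole3 had a ratio of 1.39, Rsf1 was 1.10-fold lower and Hmgxb4 was 1.85-fold lower. Under scaling by total counts or median of ratios, or with 1 CPM added, 0 of the 4 were at least 1.5-fold higher.

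**Figure D3:**
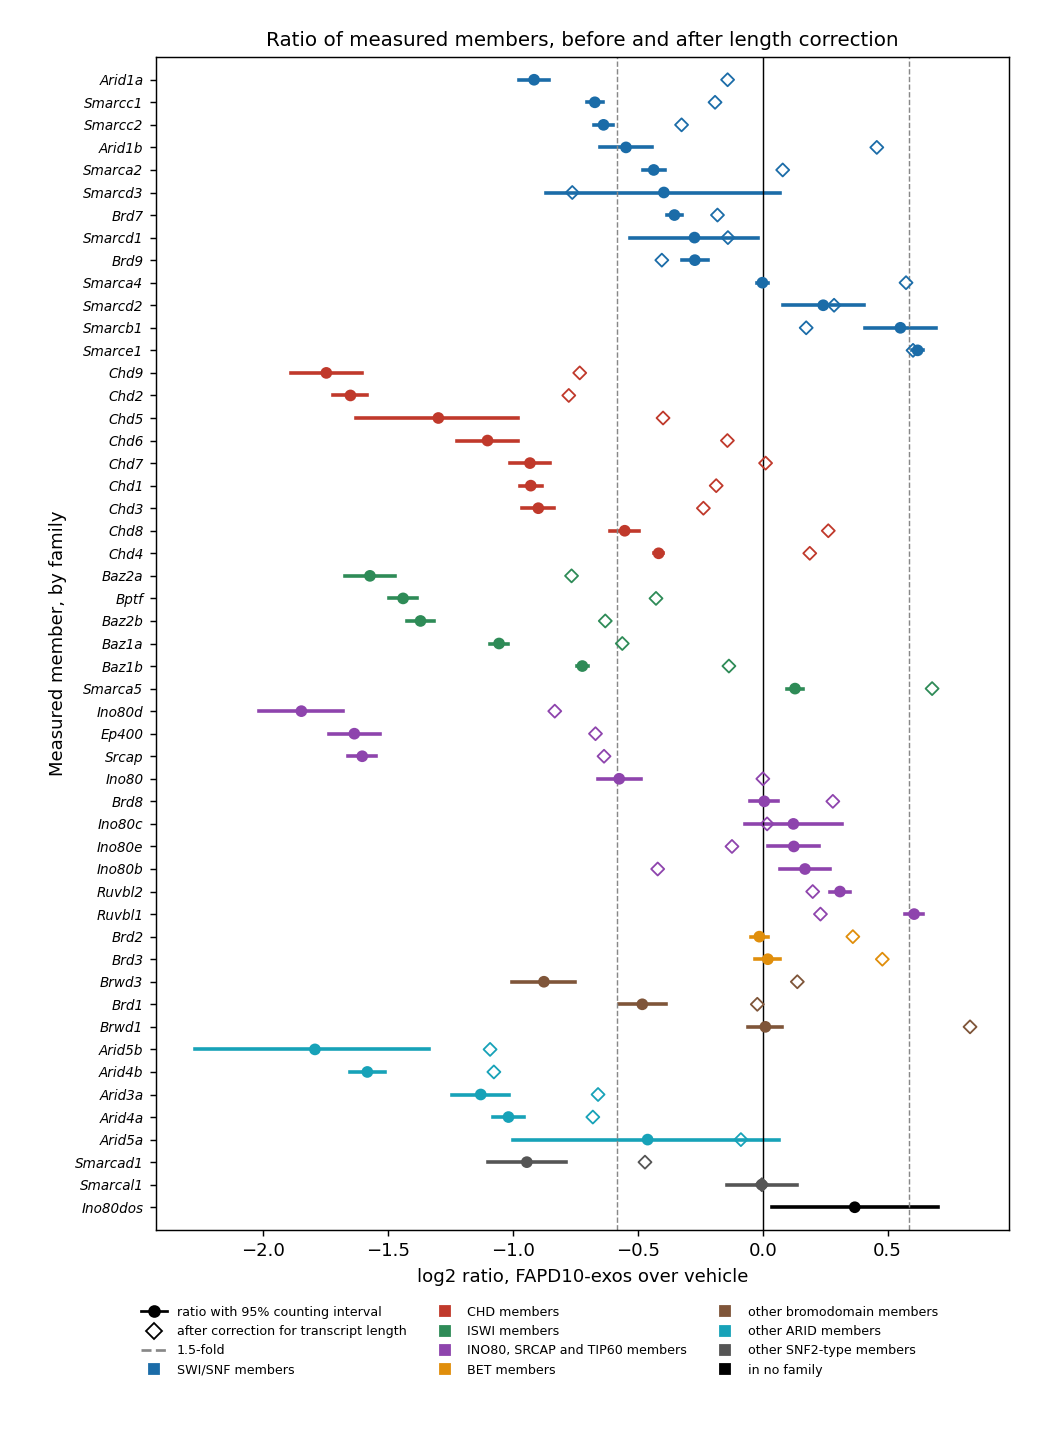
Filled circles give the log2 ratio of treated over vehicle for 51 of the 52 measured members, grouped by family, with bars for the 95% counting interval. Open diamonds give the same value after correction for transcript length, and dashed lines mark 1.5-fold. Most circles lie left of 0 and most diamonds nearer to it, and Arid4b lies at -1.58 before and -1.08 after correction.

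SWI/SNF genes differed less. Of 13 measured members, 3 were at least 1.5-fold lower and 1 higher, 0 passed 2-fold, and the median log2 ratio was -0.35. The 3 are 23.1%, near the 19.8% of all measured genes, and the 1 is 7.69%, beside 17.1%. Smarca4, the ATPase BRG1, had 31008 and 32954 counts, or 871 and 872 CPM, a ratio of 0.999 (0.984 to 1.01). The alternative ATPase Smarca2, or BRM, had 6954 and 9993 counts and was 1.35-fold lower (1.31 to 1.395). Both have transcripts of about the same length, and after correction for it they stood at 0.57 and 0.08, but at 0.24 and 0.26 with exon length. In CPM per kilobase of exon Smarca4 was at 135 in both libraries and Smarca2 at 13.7 and 18.5.

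Smarce1, the DNA-binding BAF57 subunit, had 35741 and 24691 counts, or 1004 and 653 CPM, and was 1.54-fold higher (1.51 to 1.56). It stood at 0.60 after correction for transcript length, and its pseudogene Smarce1-ps1 held 38 and 30 counts. Smarcb1, a core subunit and tumour suppressor, had 966 and 700 counts, a ratio of 1.47 (1.33 to 1.62) just under the threshold. It stood at 0.17 after correction for transcript length, but passed 1.5-fold with exon length, at 0.89, and under upper-quartile scaling, at 0.62. Arid1a, the subunit that defines the canonical BAF complex, had 3445 and 6900 counts and was 1.89-fold lower (1.81 to 1.97), with a corrected value of -0.14. Its paralog Arid1b, with a longer transcript of 11325 nt, was 1.46-fold lower and stood at 0.46 after correction, or 0.06 with exon length. Scaling by total counts and by median of ratios put Arid1b past 1.5-fold downwards, at -0.68 and -0.59 in log2.

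The core subunits Smarcc1 and Smarcc2 were 1.59-fold (1.56 to 1.63) and 1.56-fold (1.52 to 1.60) lower. After correction for transcript length they stood at -0.19 and -0.32, and with exon length at -0.37 and -0.43, past 1.5-fold under neither. Under upper-quartile scaling Smarcc2, at -0.57, was not past 1.5-fold. Of the SMARCD paralogs, Smarcd2 had a ratio of 1.18 (1.06 to 1.32), Smarcd1 one of 0.828 and Smarcd3 one of 0.760 (0.548 to 1.05) from 68 and 95 counts. Smarcd3 passed 1.5-fold only after correction for transcript length, at -0.76, not with exon length, at -0.32, and 48.2% of its exon length overlaps other genes. The bromodomain subunits Brd7 and Brd9 were 1.28-fold and 1.21-fold lower. Among 13 measured SWI/SNF partners, 2 were at least 1.5-fold higher and 5 lower, or 15.4% and 38.5%. All measured genes had 17.1% higher and 19.8% lower. The 5 became 2 under upper-quartile scaling, with 1 CPM added or after correction for transcript length, and 3 with exon length or a filter at 10 CPM, which left 1 of the 2 higher. Bcl7c was 2.17-fold higher (1.80 to 2.62) and Bicra, a subunit of the noncanonical complex, 1.89-fold higher (1.79 to 1.99; 1.44 in log2 after correction), while the polybromo gene Pbrm1 was 2.71-fold lower (2.54 to 2.89) and Bcl7a 2.30-fold lower. Arid2, the PBAF subunit whose name the pattern does not match, had 264 and 757 counts and was 2.70-fold lower (2.34 to 3.12).

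The remaining ARID genes had the lowest median of any family after correction for transcript length, -0.68 in log2. Arid4b, which encodes a retinoblastoma-binding protein of the Sin3 complex, had 2123 and 6755 counts and was 2.996-fold lower (2.85 to 3.15), with a corrected value of -1.08. Its paralog Arid4a, with 3023 and 6501 counts, was 2.02-fold lower (1.94 to 2.11). The transcription factor gene Arid3a had 896 and 2081 counts and was 2.19-fold lower (2.02 to 2.37). Arid5b was 3.46-fold lower (2.52 to 4.84) from 50 and 184 counts, and -1.09 after correction.

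These 4 were lower before and after correction, out of 5 measured genes in the group, or 80.0%. Of all measured genes 19.8% were lower before correction, and of protein-coding ones 12.0% after correction for transcript length. Arid5a, an RNA-binding protein known to stabilise Il6 mRNA, had 52 and 76 counts and a ratio of 0.727 (0.501 to 1.05). Arid3b, at 30 and 34 counts, and Arid3c, at 2 and 0, were not measured. A count of 0 allows up to 3 counts, or 0.0794 CPM in the vehicle library.

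Brd2 and Brd3 encode BET proteins, which bind acetylated histones through paired bromodomains, and both were at almost the same level in the 2 libraries. Brd2 had 14291 and 15318 counts, a ratio of 0.991 (0.968 to 1.01), and Brd3 had 6333 and 6630, a ratio of 1.01 (0.980 to 1.05). After correction for transcript length Brd2 stood at 0.36 and Brd3 at 0.48. The values of Brd2, Brd3, Brd8, Smarca4, Smarcal1, Brwd1, Ino80c and Ino80e lay so near a ratio of 1 that their sign changed with the scaling.

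Brwd1, a bromodomain and WD-repeat protein known from lymphocyte development, had 3439 and 3625 counts, a ratio of 1.01 (0.961 to 1.06). With a transcript of 8547 nt it stood at 0.83 after correction, the farthest above the running median of any measured member. Its paralog Brwd3, on the X chromosome, had 784 and 1528 counts and was 1.84-fold lower (1.68 to 2.003), but at 0.14 after correction for transcript length and -0.26 with exon length. Brd1, a scaffold of histone acetyltransferase complexes, was 1.397-fold lower. Of the other SNF2-type members, Smarcad1, which acts in heterochromatin maintenance, was 1.92-fold lower (1.73 to 2.15), and the fork-remodelling helicase gene Smarcal1 had 816 and 869 counts, a ratio of 0.997. Smarcad1 stood at -0.47 after correction for transcript length and -0.30 with exon length, past 1.5-fold under neither.

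**Figure D4:**
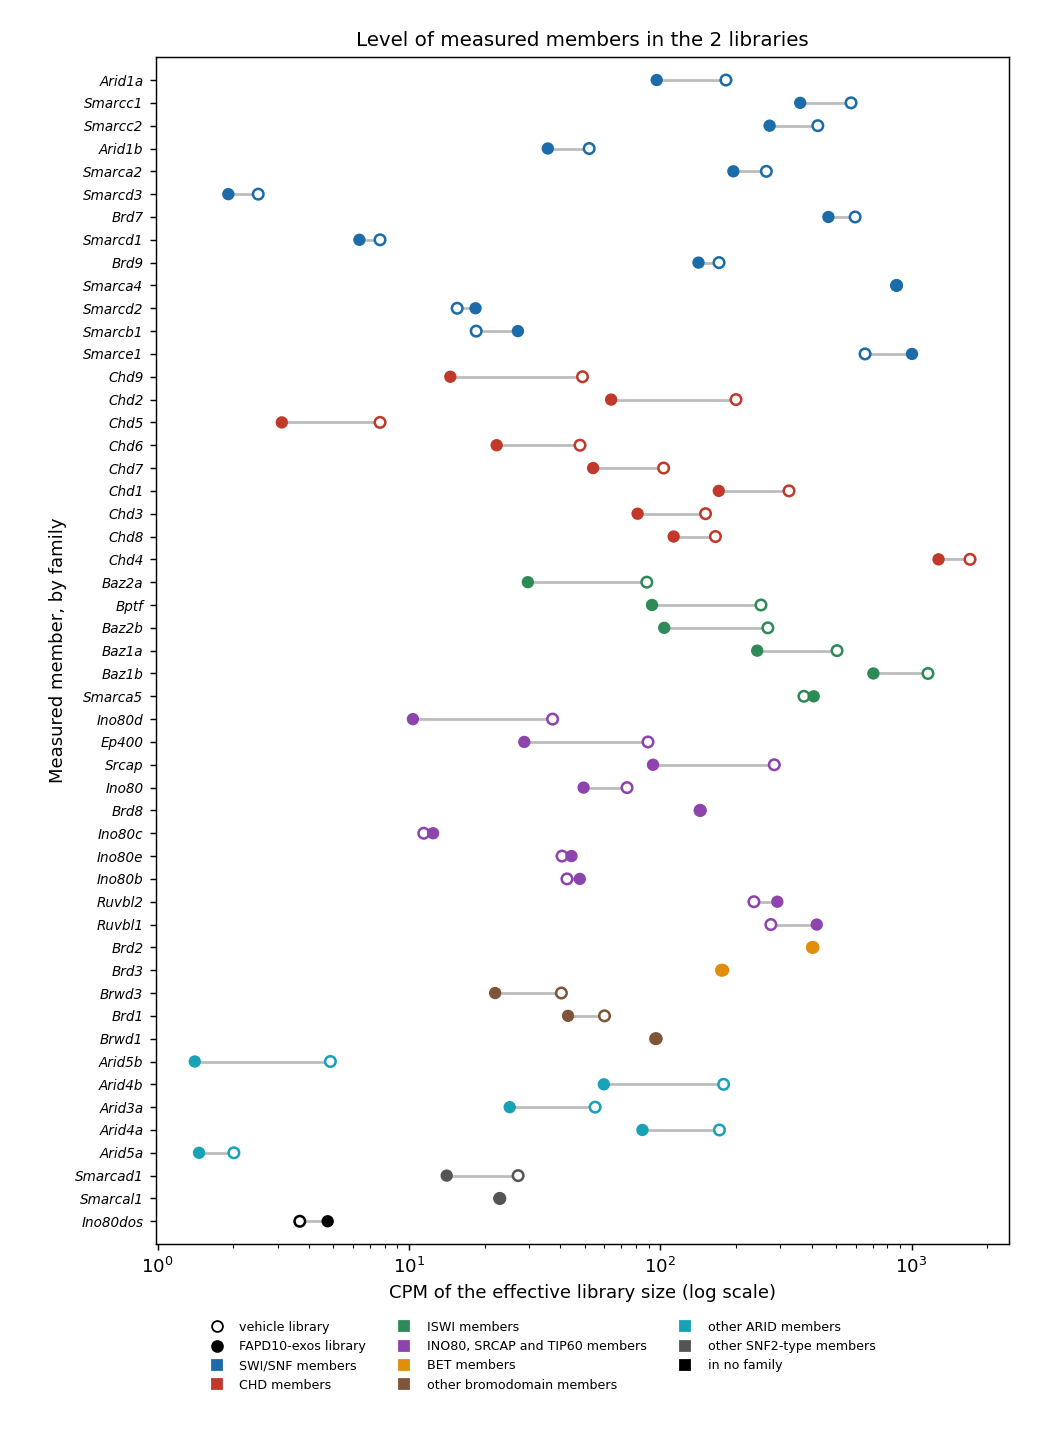
Level of 51 of the 52 measured members in CPM on a log axis, with open circles for the vehicle and filled circles for the treated library, grouped by family. Levels run from about 1.41 CPM for Arid5b in the treated library to 1709.5 CPM for Chd4 in the vehicle library, and the circles of Smarca4, Brd2, Brd3, Brd8, Brwd1 and Smarcal1 coincide.

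Shares within paralog groups do not depend on scaling between libraries, but they are not corrected for transcript length. In 13 of 16 groups at least 1 paralog had shares whose 95% exact binomial (Clopper-Pearson) intervals did not overlap, and in 10 with counts halved. These intervals cover counting error only. The share of other groups of genes with such intervals was not computed, so this count is not a result about the paralogs. Smarca2 made up 23.3% (22.9 to 23.7) of the Smarca2 and Smarca4 counts in the vehicle and 18.3% (17.9 to 18.7) in the treated library. Brwd3 made up 29.65% (28.4 to 30.9) of its pair in the vehicle and 18.6% (17.4 to 19.8) in the treated library.

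Chd2 held 38.1% of the Chd1 and Chd2 counts in the vehicle and 27.2% in the treated library, and Arid4b 51.0% and 41.3% of its pair. Chd2, Arid4b and Brwd3 have the longer transcript of their pair, at 9085, 5864 and 11619 nt beside 7916, 4998 and 8547 nt. Smarca2, also lower in share, has the shorter one, at 5921 nt beside 6354 nt. Within the Chd6 to Chd9 group Chd8 held 45.3% (44.5 to 46.15) in the vehicle and 55.4% (54.25 to 56.55) in the treated library, and Chd9 13.4% and 7.16%. Arid1b took a larger share of its pair in the treated library, 26.9% (25.7 to 28.2) against 22.2% (21.4 to 23.1), although its transcript is the longer one. The core pair Smarcc1 and Smarcc2 kept close shares, with Smarcc1 at 57.55% (57.05 to 58.05) in the vehicle and 56.96% (56.31 to 57.61) in the treated library. The shares of Brd7 and Brd9 also had overlapping intervals, with Brd9 at 22.3% and 23.3%.

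**Figure D5:**
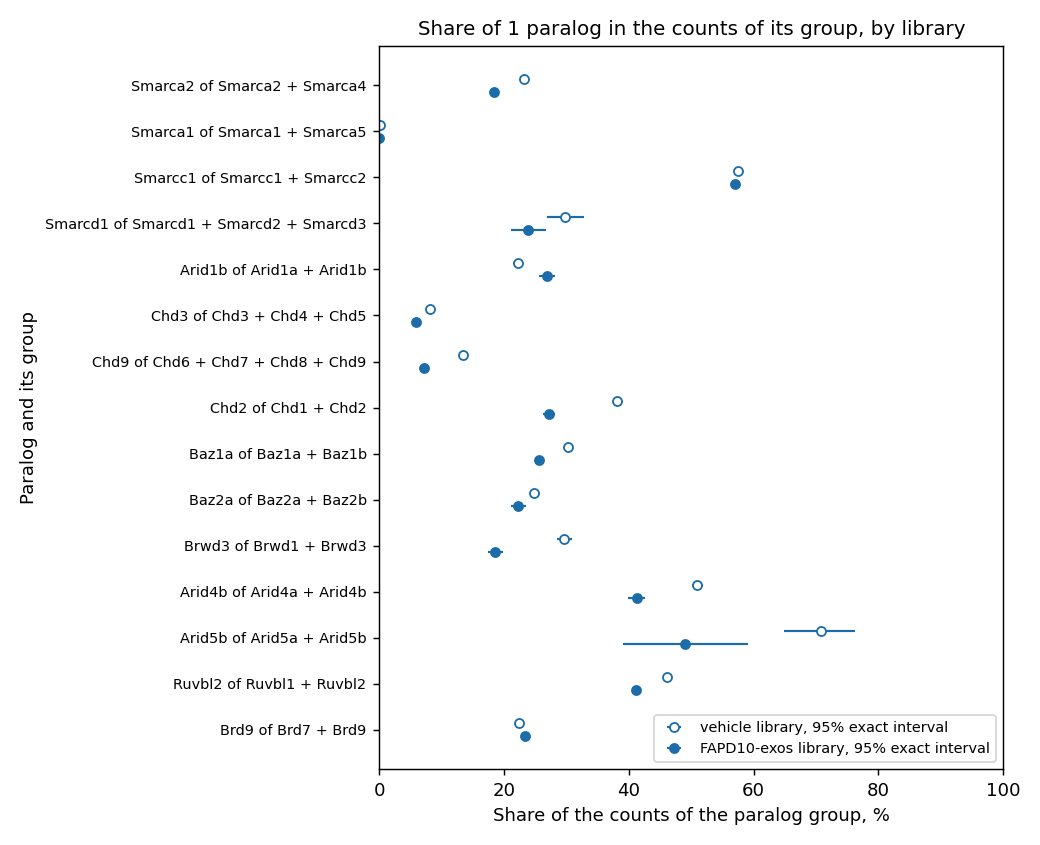
Share of 1 paralog in the summed counts of its group, in percent, in the vehicle (open) and treated library (filled), with 95% exact intervals. Brwd3, Chd2 and Arid4b have lower shares in the treated library, Arid1b has a higher one, and Smarcc1 and Brd9 overlap.

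Most genes for bromodomain proteins and SNF2-type ATPases outside the named families were lower too. Their transcripts are long, with medians of 5819 and 5868 nt beside 2982 nt for all measured protein-coding genes. The 18 other bromodomain genes, all measured, included 11 past 1.5-fold downwards and 0 upwards. That is 61.1% lower, where all measured genes had 19.8% lower and 17.1% higher. Their median log2 ratio was -0.89, or -0.35 after correction for transcript length. Kmt2a, a histone methyltransferase gene, and Ep300, an acetyltransferase gene, were 3.31-fold (3.09 to 3.55) and 3.20-fold (2.96 to 3.47) lower. Kat2a and Trim28 were at the other end, with ratios of 1.28 and 1.23. Among 11 other SNF2-type ATPase genes, 8 passed 1.5-fold downwards, or 72.7%, and 0 upwards. After correction for transcript length 3 of these ATPase genes and 4 of the bromodomain genes were lower, and with exon length 4 and 7. For transcript length these were 27.3% and 22.2%, beside 12.0% of all measured protein-coding genes. With exon length 16.4% of all measured genes were lower. Rad54l2 was 3.81-fold lower (3.44 to 4.22) and Btaf1 3.53-fold lower (3.30 to 3.77), and they stood at -1.04 and -1.16 after correction, whereas Chd1l and Rad54l had ratios of 1.16 and 1.15. Over all 80 measured partner genes, 32 passed 1.5-fold downwards and 9 upwards, or 40.0% and 11.25%.

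The members lie on 19 chromosomes, with at most 5 on 1 of them. By the coordinates of the deposited table (mouse build not given in the sources used here), Ino80d spans 62997577 to 63153849 on chromosome 1, Chd9 spans 91554980 to 91781144 on chromosome 8 and Arid4b spans 14237817 to 14374188 on chromosome 13. Smarce1 spans 99099873 to 99121843 on chromosome 11, Ruvbl1 spans 88442391 to 88474554 on chromosome 6 and Brwd1 spans 95793292 to 95883726 on chromosome 16.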

How the data were processed

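RNA-seq counts from 1 treated and 1 vehicle library of RAW264.7 cells were used. The authors deposited 1 table of whole-number counts per gene symbol, not normalised, with exon coordinates and an exon length per gene, in the layout featureCounts writes per the file headers. The submitters' processing notes name fastp 0.23.4, the aligner STAR 2.5.3a, featureCounts and the build GRCh38, which is human and cannot be that of mouse symbols. Nothing in the sources used here gives the strand setting, annotation release or handling of multi-mapping reads, so overlapping and antisense genes cannot be told apart.

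Counts were scaled by TMM (edgeR 4.0.16, R 4.3.3; factors 0.957 treated, 1.05 vehicle) over the whole table. With 1 library per group the quasi-likelihood test could not be fitted. Intervals were exact Clopper-Pearson at 95% and cover counting error only. Among counts of 1 to 50, 76.3% and 75.1% were even, as when both ends of read pairs are counted, so a second set of intervals used halved counts. Called means past the fold with an interval that leaves out 1. Where 1 count was 0, 0.5 was added. The length correction joined medians of 50 equal bins and was flat beyond the last bin, where Chd9, Ino80d and Brwd3 lie. Alternatives were scaling by total counts, median of ratios (DESeq2 1.42.0) and upper quartile, 1 CPM added, no filter, a filter at 10 CPM, genes with over 20% exon overlap left out, and means or summed counts. The code was tested on simulated counts.

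Members, families, partner lists and the rule for named genes (family extremes, main ATPases, BET and RUVBL genes, the 5 members farthest above and below the running median, and the 2 highest and 2 lowest partners per list with at least 100 counts) were chosen with earlier results of these data known. Values of 1 measured member are not reported here, though it enters the counts and medians. Arid2, Chaserr and the promoters shown were added after values were seen. Other steps ran in Python 3.11.15 (scipy 1.17.1, pandas 2.3.3, numpy 2.4.6; figures in matplotlib 3.10.9).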

Additional observations from a re-analysis of the deposited data

Results flagged for a closer look

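Counts were present in 2 rows that the choice of members leaves out because their names mark pseudogenes. Smarca5-ps had 81 counts (treated) and 72 (vehicle), a ratio of 1.195 (0.859 to 1.66), and Smarce1-ps1 had 38 and 30, a ratio of 1.35 (0.812 to 2.25). Both are above the 3 counts that a count of 0 allows, and both intervals include 1. They amount to few counts beside Smarca5 and Smarce1.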

How the results depend on the processing

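The 25 members lower by 1.5-fold became 12 with correction for transcript length and 13 with correction for exon length, and lay between 23 and 30 under the other 8 alternatives. The 15 members lower by 2-fold became 2 under either correction. The 2 higher members became 0 under scaling by total counts and by median of ratios. The member median of -0.56 was -0.69 under scaling by total counts, -0.24 and -0.14 with correction for exon and transcript length, and -0.39 from summed counts. For all partners, the 32 lower genes became 17 with correction for exon length and 11 for transcript length, and the 9 higher genes became 3 under total counts and 5 under either correction. Their median of -0.20 was -0.32 under total counts and -0.0597 with correction for exon length, and stayed at -0.20 with correction for transcript length. Chd7 and Brwd3, lower before correction, stood at 0.012 and 0.14 with correction for transcript length. Higher genes made up 46.3% of all genes past 1.5-fold, 32.3% under total counts and 53.8% under upper-quartile scaling, and 7.41% of members past it, 0% under total counts, and 18.8% and 20.0% with correction for exon and transcript length. No paired analysis was possible because each group has 1 library. The cause of these shifts was not tested. Depth limits Smarca1, Arid3b and Arid3c, and intervals of Chd5, Arid5a, Arid5b and Smarcd3 are wide.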
